A study of Mus musculus with 8 samples.

Results

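Autophagy and mitophagy genes were followed by their RNA in mouse blastocysts. The 10 genes, Becn1, Atg5, Map1lc3a, Map1lc3b, Gabarap, Gabarapl2, Sqstm1, Bnip3, Bnip3l and Pink1, were taken by name from a deposited table of 19688 genes. All 10 were found, and all 10 passed the filter on low values. The table covers 8 RNA-seq libraries of blastocysts, the stage at which an outer trophectoderm encloses the inner cell mass. Fresh blastocysts that were never vitrified, the control, gave 2 libraries. Vitrified blastocysts, frozen to a glass without melatonin and thawed, gave 3 libraries. Melatonin-vitrified blastocysts, for which both the vitrification and the thawing medium held 1e-10 M melatonin, gave 3 libraries. Both vitrified groups thus share the freezing and thawing, and differ by the melatonin. Sources used here do not state strain, embryo age or embryos per library, nor whether libraries came from separate animals or pools. P-values therefore measure the spread between these libraries, which may be technical.

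Autophagy encloses cytoplasm in a double membrane, the autophagosome, which fuses with the lysosome, where its content is digested. A lipid kinase complex that holds Beclin 1 starts the membrane, and an enzyme complex that holds ATG5 attaches ATG8 proteins (the LC3 and GABARAP branches) to a lipid in it, where they recruit cargo receptors. Mitophagy is the same process with mitochondria as cargo, marked by the kinase PINK1 or by the receptors BNIP3 and NIX in the outer mitochondrial membrane. In mammals, autophagy clears maternal proteins after fertilisation and is needed for early cleavage. RNA levels do not measure the flow of material through the pathway, which is set largely by proteins and lipids.

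The promoters of Bnip3 and Pink1 are shown because these genes had the lowest unadjusted p of the 10 in the comparisons below. Bnip3 is also a textbook target of the hypoxia-inducible factor HIF-1, whose sites hold the letters ACGTG or GCGTG. RefSeq promoter entries on GRCm38.p6, the build also called mm10, were found for 7 of the 10 genes. The 250 bases before the RefSeq start were searched on both strands, and the bases printed stop where either RefSeq or GENCODE places the transcript. Both stretches are read 5′ to 3′ on the minus strand, and capitals mark ACGTG or GCGTG on either strand (CACGT or CACGC where the match lies on the other strand). Bnip3 is shown for chr7:138909520-138909756 and Pink1 for chr4:138326308-138326546.
Bnip3: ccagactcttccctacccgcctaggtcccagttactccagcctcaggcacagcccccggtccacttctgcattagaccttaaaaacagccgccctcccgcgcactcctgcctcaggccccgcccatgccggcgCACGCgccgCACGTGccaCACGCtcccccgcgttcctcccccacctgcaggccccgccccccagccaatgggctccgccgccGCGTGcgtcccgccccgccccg
Pink1: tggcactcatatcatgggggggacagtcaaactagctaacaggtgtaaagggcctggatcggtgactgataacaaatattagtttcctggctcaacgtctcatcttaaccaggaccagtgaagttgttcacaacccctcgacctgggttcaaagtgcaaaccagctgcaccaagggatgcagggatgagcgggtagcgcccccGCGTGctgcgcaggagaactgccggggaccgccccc
The Bnip3 window held 5 matches, which begin 117, 108, 107, 99 and 35 bases before the RefSeq start. The matches at 108 and 107 bases are the opposite strands of 1 E-box, CACGTG, and overlap each other there. The Pink1 window held 1 match, 47 bases before the start. Of the windows not shown, that of Map1lc3b also held 5 matches. That of Atg5 held 3, and it also had an E-box CACGTG. Either set of letters was present in 6 of the 7 promoters (not in that of Sqstm1) and in 38.6% of all 32851 RefSeq promoter windows of this length. The Bnip3 window had a GC content of 72.4% and the Pink1 window one of 57.2%. These matches describe the letters in the windows and are not evidence of binding.

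Levels are in FPKM, fragments scaled by transcript length and library size, so that levels of different genes can be set side by side. From the size of the smallest FPKM steps, the libraries were estimated to hold between 5840000 and 10010000 fragments assigned to genes, and 1 FPKM of a 2-kb transcript was 11.7 to 20.0 fragments. Trophectoderm markers summed to between 6620 and 11400 FPKM and primitive endoderm markers to between 95 and 190 FPKM. Markers of cumulus cells, feeder fibroblasts and blood summed to at most 1.34 FPKM in any library. The deposited values cover only 3 of 9 cumulus, 3 of 5 fibroblast and 2 of 5 blood markers sought. Epiblast markers summed to 27.5 and 72.8 FPKM in the fresh libraries and to between 136 and 176 FPKM in the others. Transcripts of the mitochondrial genome took 11.3% of the summed FPKM in fresh replicate 1, 6.56% in fresh replicate 2 and 4.24% to 5.89% in the other libraries. Y-linked transcripts were at 0 in vitrified replicates 2 and 3 and summed to between 20.9 and 36.8 FPKM in the other 6 libraries. For the Y-linked transcripts, values with their presence or absence as a covariate are given beside the results they touch. When FPKM were rescaled without the mitochondrial genome, 0 of the 10 genes were called in any comparison. Beside them, 154 of all 10766 genes tested were called in vitrified against fresh, 15 in melatonin-vitrified against vitrified and 0 in melatonin-vitrified against fresh. With this rescaling the differences in vitrified against fresh were 0.88 for Pink1, -0.48 for Bnip3 and -0.45 for Becn1. The part of the epiblast marker level in the results was not tested. In whole embryos, fewer cells of a type and less RNA per cell cannot be told apart.

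The ubiquitin-like gene Gabarapl2 was by far the most abundant of the 10, with a mean of 1459 FPKM over the 8 libraries. It ranked 24 of 19688 genes by that mean, and between 21 and 37 in single libraries. Bnip3 came next at 217 FPKM. Then followed Map1lc3b at 65.1, Map1lc3a at 53.9, Atg5 at 44.3, Gabarap at 40.4, Sqstm1 at 26.7, Bnip3l at 19.8, Becn1 at 12.0 and Pink1 at 10.3 FPKM. The ranges over the 8 libraries of Gabarapl2 (1223 to 1702), Bnip3 (139 to 288) and Map1lc3b (49.2 to 78.0) did not overlap. From Map1lc3b down, the ranges of neighbours in this order overlapped. The highest library was 2.36 times the lowest for Pink1, 2.08 times for Bnip3 and 1.86 times for Becn1, while it was 1.29 times the lowest for Map1lc3a.

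**Figure D1:**
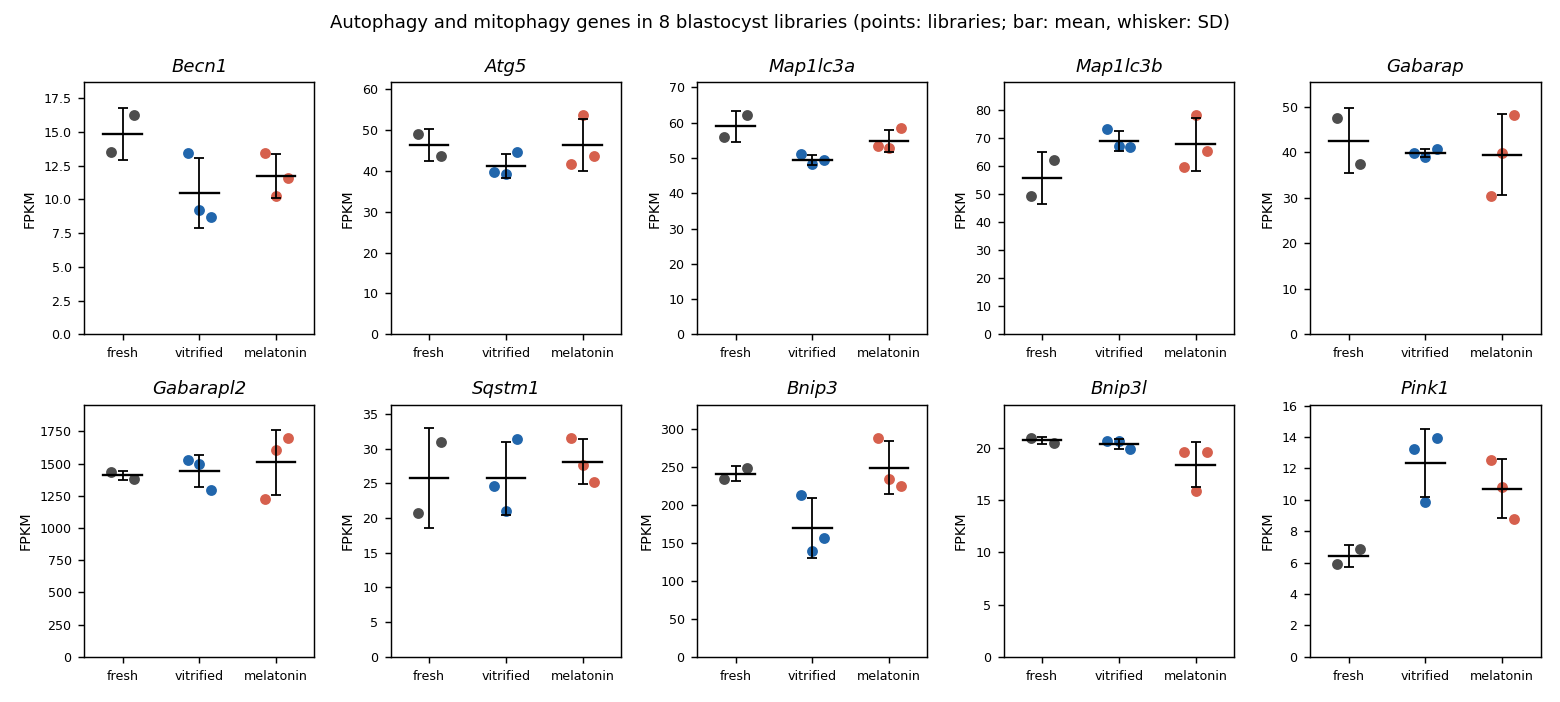
FPKM of each of the 10 genes in the fresh, vitrified and melatonin-vitrified libraries, 1 panel per gene with its own vertical axis from 0. Points are libraries, bars the group mean and whiskers the SD (n = 2, 3 and 3). Both fresh points of Pink1 lie below all other points, and the vitrified points of Bnip3 lie below the points of both other groups.

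None of the 10 genes passed the test in any of the 3 comparisons. Differences were tested with limma on log2(FPKM + 1) over 10755 genes, and a gene was called at a Benjamini-Hochberg adjusted p below 0.05. In vitrified against fresh blastocysts 0 of 10 were called, where 0.865% of all genes tested were. In melatonin-vitrified against vitrified blastocysts 0 of 10 were called beside 0.139% of all genes, and in melatonin-vitrified against fresh blastocysts 0 of 10 beside 0.0%. At an unadjusted p below 0.05 the counts were 2 of 10 (Pink1 higher, Bnip3 lower; 20.2% of all genes), 1 of 10 (Bnip3 higher; 14.8%) and 1 of 10 (Pink1 higher; 18.5%). These shares lie near those of all genes. The libraries of the groups did not overlap for 5 of 10 genes in vitrified against fresh (37.0% of all genes), for 3 of 10 in melatonin-vitrified against vitrified (24.7%) and for 3 of 10 in melatonin-vitrified against fresh (34.3%). The comparisons share libraries and are not independent of each other.

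The median log2 fold change of the 10 genes was -0.05 in vitrified against fresh, beside 0.14 over all genes tested. It was 0.10 in melatonin-vitrified against vitrified, beside -0.05, and 0.02 in melatonin-vitrified against fresh, beside 0.09. Under median-ratio scaling, which removes the shift of all genes, the medians were -0.25, 0.17 and -0.11, so that the third had the other sign. Within the 10, 4 lay above 0 and 6 below in vitrified against fresh, 6 above and 4 below in melatonin-vitrified against vitrified, and 5 on either side in melatonin-vitrified against fresh. Set against the median of all genes in place of 0, 2 lay above (Pink1 and Map1lc3b) and 8 below in vitrified against fresh, 8 above and 2 below (Pink1 and Bnip3l) in melatonin-vitrified against vitrified, and 3 above (Pink1, Map1lc3b and Sqstm1) and 7 below in melatonin-vitrified against fresh. The counts by direction thus depend on whether the shift of all genes is removed. Under median-ratio scaling Gabarapl2 and Sqstm1 also had values below 0 in vitrified against fresh, at -0.17 and -0.19. Relative to the shift of all genes, the difference in vitrified against fresh was 0.70 for Pink1, -0.67 for Bnip3, -0.63 for Becn1 and -0.38 for Map1lc3a.

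**Figure D2:**
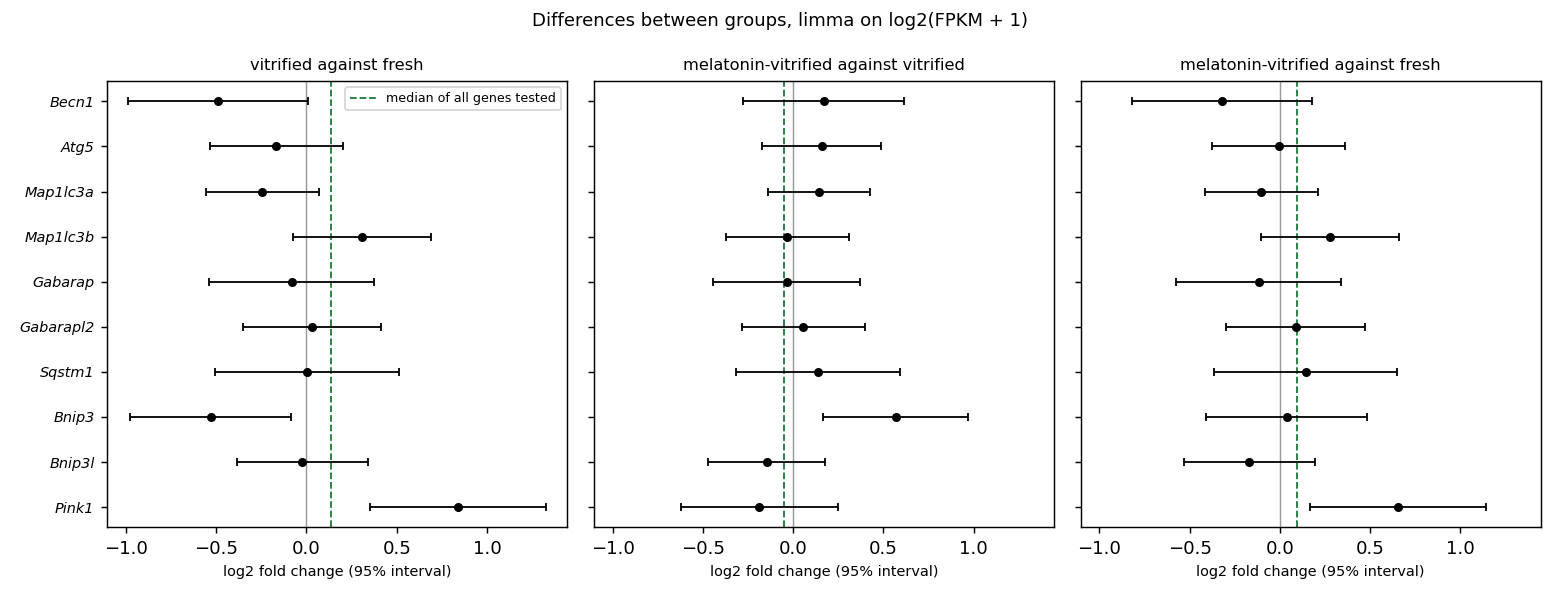
Log2 fold changes of the 10 genes with their 95% intervals from limma, 1 panel per comparison. The solid line is 0 and the dashed line the median of all 10755 genes tested. The intervals of Pink1 and Bnip3 lie clear of 0 in vitrified against fresh, that of Bnip3 in melatonin-vitrified against vitrified and that of Pink1 in melatonin-vitrified against fresh, before adjustment for the number of genes.

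Of the genes that start and extend the membrane, Becn1 encodes Beclin 1, a subunit of the class III PI3-kinase complex (ENSMUSG00000035086, chr11:101285952-101302286, minus strand). Becn1 was at 13.5 and 16.2 FPKM in the fresh libraries, at 13.4, 9.19 and 8.72 in the vitrified libraries, and at 13.4, 10.2 and 11.6 in the melatonin-vitrified libraries. Both fresh libraries were above all others, but fresh replicate 1 and replicate 1 of either vitrified group were nearly equal. The log2 fold change in vitrified against fresh was -0.49 ± 0.22 (SE; 95% interval -0.99 to 0.01; adjusted p = 0.255). It was -0.32 in melatonin-vitrified against fresh (-0.82 to 0.18; adjusted p = 0.468) and 0.17 in melatonin-vitrified against vitrified (-0.28 to 0.62; adjusted p = 0.724).
The 2 vitrified libraries with the lowest Becn1 are those without Y-linked transcripts. With the presence or absence of these transcripts as a covariate, the vitrified group rests on replicate 1. The value of Becn1 in vitrified against fresh was then -0.13. The transcripts of Becn1 overlap those of Cntd1 on the other strand over 1299 bases, and the sources used here do not say whether the authors' counting used strand. Cntd1 had a similar value, -0.48 ± 0.21 in vitrified against fresh (adjusted p = 0.241). Without strand, reads of this pair that fall in the overlap cannot be told apart.

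Atg5 encodes the core of the enzyme complex that joins ATG8 proteins to phosphatidylethanolamine (ENSMUSG00000038160, chr10:44268358-44364291, plus strand). Its level was 49.0 and 43.6 FPKM in the fresh, 39.7, 39.2 and 44.5 in the vitrified, and 41.7, 53.5 and 43.6 in the melatonin-vitrified libraries. The groups overlapped in every comparison, with the highest value in melatonin-vitrified replicate 2. The largest of its 3 log2 fold changes in size was -0.17 ± 0.16 in vitrified against fresh (95% interval -0.53 to 0.20; adjusted p = 0.606).

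The ATG8 family divides into the LC3 branch, which acts in membrane growth and cargo capture, and the GABARAP branch, which acts in closure and fusion. Gabarapl2 encodes GATE-16 (ENSMUSG00000031950, chr8:111940703-111953612, plus strand), and its level was 1433 and 1383 FPKM in the fresh, 1531, 1495 and 1298 in the vitrified, and 1223, 1608 and 1702 in the melatonin-vitrified libraries. The lowest and the highest library both belonged to the melatonin-vitrified group, whose spread enclosed both other groups. The log2 fold change of Gabarapl2 was 0.03 in vitrified against fresh (95% interval -0.35 to 0.41), 0.06 in melatonin-vitrified against vitrified (-0.29 to 0.40) and 0.09 in melatonin-vitrified against fresh (-0.30 to 0.47), with adjusted p of 0.947, 0.886 and 0.827. Near-identical sequence, at least 90% over 300 bases or more, is present in 6 processed pseudogenes that the table does not list, and the sources used here do not say how reads from such copies were assigned.

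Gabarap, the founding member of the branch (ENSMUSG00000018567, chr11:69991143-69994951, plus strand), was at 47.5 and 37.5 FPKM in the fresh, 39.7, 39.0 and 40.8 in the vitrified, and 30.4, 39.9 and 48.1 in the melatonin-vitrified libraries. The vitrified libraries were the closest together, with an SD of 0.902 FPKM against 7.11 in the fresh and 8.86 in the melatonin-vitrified group. Its log2 fold changes were -0.08, -0.04 and -0.12 in vitrified against fresh, melatonin-vitrified against vitrified and melatonin-vitrified against fresh, with adjusted p of at least 0.80. The GABARAP branch, Gabarap, Gabarapl1 and Gabarapl2 together, held between 91.7% and 93.4% of the summed FPKM of the 5 ATG8 genes in every library. Gabarapl2 alone held 89.1% to 90.7%, so that the family's total of 1367 to 1878 FPKM was nearly this 1 gene. The branch share differed by -0.09, 0.02 and -0.08 percentage points between the groups in the same order (exact permutation p = 1.0 in each, two-sided; the smallest p these groups allow is 0.1).

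In the LC3 branch, Map1lc3a (ENSMUSG00000027602, chr2:155276297-155278073, plus strand) and Map1lc3b (ENSMUSG00000031812, chr8:121590361-121598760, plus strand) differed from the fresh group in opposite directions. Map1lc3a was at 55.9 and 62.1 FPKM in the fresh, 51.0, 48.3 and 49.3 in the vitrified, and 53.3, 52.8 and 58.3 in the melatonin-vitrified libraries. Map1lc3b was at 49.2 and 62.1 FPKM in the fresh, 73.0, 66.9 and 66.6 in the vitrified, and 59.8, 78.0 and 65.1 in the melatonin-vitrified libraries. For Map1lc3a the vitrified libraries lay below all of both other groups, and for Map1lc3b they lay above both fresh libraries.
The log2 fold change in vitrified against fresh was -0.25 ± 0.14 for Map1lc3a (95% interval -0.56 to 0.07; adjusted p = 0.352). For Map1lc3b it was 0.31 ± 0.17 (-0.07 to 0.69; adjusted p = 0.337). Neither passed the test. Between both vitrified groups (melatonin-vitrified against vitrified) the values were 0.14 for Map1lc3a (adjusted p = 0.622) and -0.03 for Map1lc3b (adjusted p = 0.941).
The share of Map1lc3a in the summed FPKM of the pair, a measure chosen after the values were seen and so given with no test, was 53.1% and 50.0% in the fresh libraries. It was 41.2%, 41.9% and 42.6% in the vitrified and 47.2%, 40.4% and 47.3% in the melatonin-vitrified libraries. Both fresh libraries were above the other 6.

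Sqstm1 encodes p62, the receptor that binds ubiquitin on cargo and LC3 on the membrane and is itself digested with the cargo (ENSMUSG00000015837, chr11:50199366-50210827, minus strand). Sqstm1 was at 20.7 and 30.9 FPKM in the fresh libraries, at 24.7, 21.1 and 31.5 in the vitrified libraries, and at 31.6, 27.7 and 25.2 in the melatonin-vitrified libraries. Each group spanned a large part of the whole range, and the groups overlapped in every comparison. The log2 fold change was 0.00 in vitrified against fresh, with a 95% interval of -0.51 to 0.51, and 0.14 in melatonin-vitrified against either other group. Intervals of this width leave differences of up to 1.43-fold in either direction within the error of vitrified against fresh.
Without fresh replicate 1 the value in vitrified against fresh was -0.27, and without fresh replicate 2 it was 0.28. The transcripts of Sqstm1 overlap those of Mrnip on the other strand over 583 bases. Mrnip was at 14.2 and 16.8 FPKM in the fresh, 27.6, 21.1 and 19.6 in the vitrified and 13.1, 17.6 and 15.8 in the melatonin-vitrified libraries. Mrnip was highest in the vitrified libraries, and Sqstm1 was not. Whether reads of Mrnip entered the values of Sqstm1 was not tested.

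Bnip3 and Bnip3l encode related receptors of the outer mitochondrial membrane, BNIP3 and NIX, which bind LC3 or GABARAP proteins directly. Bnip3 (ENSMUSG00000078566, chr7:138890836-138909519, minus strand) was at 234 and 248 FPKM in the fresh libraries, at 214, 139 and 156 in the vitrified libraries, and at 288, 234 and 225 in the melatonin-vitrified libraries. All 3 vitrified libraries lay below all libraries of both other groups, replicates 2 and 3 by a wide margin and replicate 1 by a narrow one. The fresh and melatonin-vitrified groups overlapped. The mean was 241 ± 9.60 FPKM in fresh (SD, n = 2), 170 ± 39.1 in vitrified (n = 3) and 249 ± 34.4 in melatonin-vitrified blastocysts (n = 3).
On the log2 scale Bnip3 differed by -0.53 ± 0.20 in vitrified against fresh (95% interval -0.98 to -0.08; limma adjusted p = 0.18). Between melatonin-vitrified and vitrified blastocysts it differed by 0.57 ± 0.18 (0.17 to 0.97; limma adjusted p = 0.219), or 1.48-fold. In melatonin-vitrified against fresh the difference was 0.04 (-0.41 to 0.48; adjusted p = 0.937). Both comparisons with the vitrified group use the same 3 libraries, and neither passed after adjustment.
Vitrified replicates 2 and 3, the lowest libraries for Bnip3, are those without Y-linked transcripts. With the presence or absence of these transcripts as a covariate, the vitrified group rests on replicate 1. The differences of Bnip3 were then -0.17 in vitrified against fresh and 0.21 in melatonin-vitrified against vitrified. Without vitrified replicate 1, the other way round, they were -0.71 (adjusted p = 0.113) and 0.74 (adjusted p = 0.0979). Near-identical copies of Bnip3, 4 pseudogenes and 2 other transcripts, are annotated in the genome and not listed in the table.

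Bnip3l (ENSMUSG00000022051, chr14:66985239-67008877, minus strand) was at 21.0 and 20.5 FPKM in the fresh, 20.7, 20.7 and 19.9 in the vitrified, and 19.7, 15.9 and 19.7 in the melatonin-vitrified libraries. The melatonin-vitrified libraries lay below all others, most of all replicate 2. The log2 fold change was -0.02 in vitrified against fresh (95% interval -0.39 to 0.34), -0.15 in melatonin-vitrified against vitrified (-0.47 to 0.18) and -0.17 in melatonin-vitrified against fresh (-0.53 to 0.19), with adjusted p of at least 0.60. The level of Bnip3l is uncertain, because the table also lists Bnip3l-ps, a transcript 99.2% identical over 663 bases, at 83.2 to 101 FPKM. Reads of the pair may have been divided between them. Bnip3l-ps differed by 0.08, -0.04 and 0.04 in the 3 comparisons.

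The share of Bnip3 in the summed FPKM of Bnip3 and Bnip3l was 91.8% and 92.4% in the fresh, 91.2%, 87.0% and 88.7% in the vitrified, and 93.6%, 93.6% and 91.96% in the melatonin-vitrified libraries. The vitrified libraries were below both other groups. The mean differed by -3.09 percentage points in vitrified against fresh (exact permutation p = 0.2, two-sided), by 4.08 in melatonin-vitrified against vitrified (exact p = 0.1) and by 0.99 in melatonin-vitrified against fresh (exact p = 0.3). With 6 such tests on shares the adjusted p was 0.6 for each, and the smallest p that these groups allow is 0.1, so that none could pass 0.05. With Bnip3l-ps added to Bnip3l the share was between 53.7% and 72.9%, and the differences were -9.49, 9.94 and 0.45 percentage points.

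**Figure D3:**
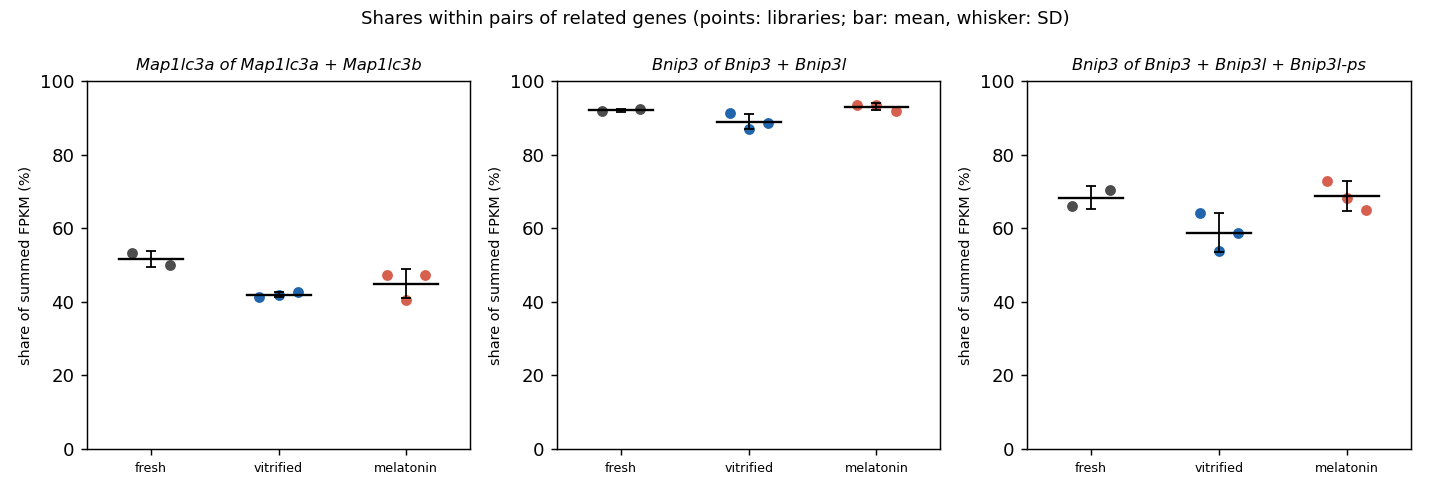
Shares of summed FPKM within pairs of related genes, in percent, by library: Map1lc3a of the LC3 pair, Bnip3 of Bnip3 and Bnip3l, and Bnip3 with Bnip3l-ps added to the sum. Points are libraries, bars the mean and whiskers the SD. The fresh points are above all others for Map1lc3a, and the vitrified points are below both other groups for Bnip3.

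Pink1 encodes the kinase that accumulates on damaged mitochondria and phosphorylates ubiquitin there (ENSMUSG00000028756, chr4:138313409-138326307, minus strand). Pink1 was at 5.91 and 6.89 FPKM in the fresh libraries, at 13.2, 9.89 and 14.0 in the vitrified libraries, and at 12.6, 10.8 and 8.80 in the melatonin-vitrified libraries. Both fresh libraries were below all 6 vitrified libraries with or without melatonin, and the vitrified and melatonin-vitrified groups overlapped. The means were 6.40 ± 0.696 FPKM in fresh (SD, n = 2), 12.4 ± 2.17 in vitrified (n = 3) and 10.7 ± 1.88 in melatonin-vitrified blastocysts (n = 3). By the estimated depth, these levels rest on about 100 to 270 fragments per library.
The log2 fold change was 0.84 ± 0.22 in vitrified against fresh (95% interval 0.35 to 1.33, or 1.28-fold to 2.51-fold; limma adjusted p = 0.0777). This was the smallest adjusted p of the 10 genes in any comparison, and it missed the threshold of 0.05. In melatonin-vitrified against fresh it was 0.65 ± 0.22 (0.17 to 1.14; adjusted p = 0.182). In melatonin-vitrified against vitrified it was -0.19 ± 0.19 (-0.62 to 0.25; adjusted p = 0.68).
Both of the larger values rest on the same 2 fresh libraries. With the presence or absence of Y-linked transcripts as a covariate, the vitrified group rests on replicate 1. The difference of Pink1 in vitrified against fresh was then 0.94.

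The other 139 genes of 10 lists of autophagy and lysosome genes in the table were described beside the 10. Of these, 127 passed the filter. In vitrified against fresh, 2 of 127 were called, beside 0.865% of all genes tested (82 higher and 11 lower). Both were higher, and both encode acid hydrolases of the lysosome. Gusb, which encodes beta-glucuronidase, was at 2.71 and 3.35 FPKM in the fresh, 8.15, 8.36 and 10.0 in the vitrified, and 3.99, 5.29 and 3.87 in the melatonin-vitrified libraries. Its log2 fold change in vitrified against fresh was 1.29 ± 0.21 (limma adjusted p = 0.0394). Ctsb, which encodes the protease cathepsin B, was at 54.2 and 42.9 FPKM in the fresh, 97.0, 94.3 and 101 in the vitrified, and 58.9, 76.2 and 75.1 in the melatonin-vitrified libraries, with a log2 fold change of 1.00 ± 0.17 (limma adjusted p = 0.0414).
For both genes all vitrified libraries were above all other libraries. The call of Gusb was lost without each vitrified library in turn, without fresh replicate 1 and without melatonin-vitrified replicates 1 or 3. That of Ctsb was lost without each library in turn other than melatonin-vitrified replicate 1. The adjusted p ranged up to 0.136 for Gusb and 0.138 for Ctsb in these fits, and the direction was the same in each. Both calls were also lost with quantile normalization, with median-ratio scaling, with no filter, in a fit of those 2 groups alone, with either replicate number as a block and with the Y-linked covariate. That of Ctsb was lost with no variance trend as well. Of all genes tested, 93 were called in the fit without these changes, and 85 with no variance trend. The number was 3 with quantile normalization, 7 with median-ratio scaling, 1 with no filter and 11 in the fit of those 2 groups. It was 1 with the description's replicate number as a block, 39 with the title's number as a block and 4 with the Y-linked covariate. Without 1 vitrified library it was 2 to 8.

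In melatonin-vitrified against vitrified, 0 of the 127 other genes were called by limma, with 9 higher and 6 lower at an unadjusted p below 0.05, beside 494 higher and 1102 lower of all 10755 genes. Gusb differed by -0.87 (adjusted p = 0.11) and Ctsb by -0.48 (adjusted p = 0.225). In melatonin-vitrified against fresh, 0 of 127 were called, with 28 higher and 2 lower at an unadjusted p below 0.05, beside 1252 higher and 733 lower of all genes. Under median-ratio scaling, the split of all genes was 769 higher and 782 lower in the first of these comparisons and 890 higher and 1062 lower in the second. The counts of the 127 genes under that scaling are not given, so those above cannot be set against this split.
The median log2 fold change of the 127 genes was 0.24 in vitrified against fresh, 0.05 in melatonin-vitrified against vitrified and 0.30 in melatonin-vitrified against fresh. In vitrified against fresh 84 of 127 were above 0, beside 63.5% of all genes, and in melatonin-vitrified against fresh 92 of 127, beside 59.2%.
By list, the median in vitrified against fresh was 0.47 for the 4 tested genes of the ULK1 initiation complex, 0.32 for the 10 cargo receptors, 0.29 for the 6 ATG9, ATG2 and WIPI genes, 0.27 for the 13 genes of autophagosome fusion, 0.27 for the 40 lysosomal genes, 0.25 for the 8 genes of the class III PI3-kinase list, which holds Becn1, and 0.16 for the 27 regulators of mTORC1, AMPK and TFEB, beside 0.14 over all genes tested. It was 0.02 for the 10 ATG8 conjugation enzymes, -0.03 for the 14 genes of the mitophagy list and -0.04 for the 5 ATG8 genes. Calls were made in the lysosomal list alone, which is also the longest, with 40 genes tested. In melatonin-vitrified against fresh the medians of these lists were 0.42, 0.44, 0.36, 0.23, 0.39, 0.40, 0.11, 0.31, 0.03 and -0.10 in the same order, beside 0.09 over all genes. The lists were not tested as groups.

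**Figure D4:**
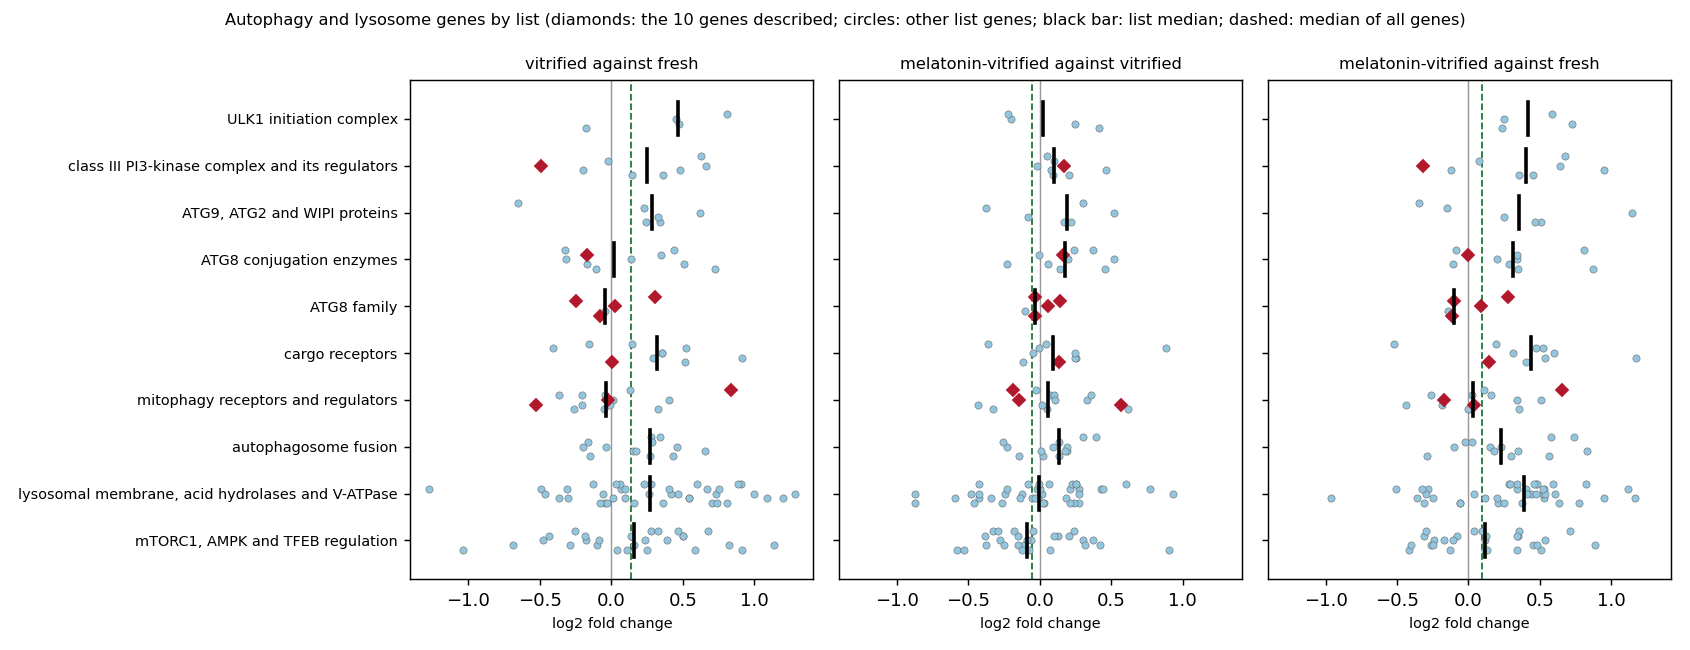
Log2 fold changes of the tested genes of the 10 autophagy and lysosome lists, 1 panel per comparison. Diamonds are the 10 genes described here, circles the other list genes, black bars the list median, and the dashed line the median of all genes tested. In vitrified against fresh the ATG8 family and the mitophagy list have medians just below 0, and the lysosomal list has the widest range.

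Among the 10 genes themselves, the highest correlation of log2(FPKM + 1) over the 8 libraries was that of Becn1 with Bnip3 (Pearson r = 0.78), followed by Becn1 with Map1lc3a (0.75). The lowest was that of Map1lc3a with Pink1 (-0.70). The libraries fall into the 3 groups, so that these values combine differences between and within groups, and they are given as a description.
Over 5720 genes with a mean of at least 5 FPKM, the genes most like Sqstm1 by the same measure were Snap47 (0.97), Slc44a2 (0.92) and Esyt1 (0.91). Those most like Bnip3 were BC053393 (0.96), Tbc1d20 (0.95) and Gyltl1b (0.95). All points come from the same 8 libraries and share their depth and scaling.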

How the data were processed

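RNA of 8 blastocyst libraries (2 fresh, 3 vitrified, 3 melatonin-vitrified, grouped by their descriptions) was measured by sequencing. The deposited table holds FPKM computed by the authors for 19688 genes, on mm10 per the submitters' processing notes. Aligner, counting tool, annotation and strand setting: not given in the sources used here. Smart-seq2 and a poly(A), strand-specific protocol are both named in the labels. All 8 columns were used.

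A single limma fit (version 3.58.1, R 4.3.3) to log2(FPKM + 1) held the 8 libraries together, with a trend in the variance, for 10755 genes of at least 1 FPKM in at least 2 libraries, and p-values were adjusted over them by the Benjamini-Hochberg method. Fold changes are on this scale and understate those of low genes. Shares were compared by exact two-sided permutation of libraries. The fit was tested on simulated data. Depth was estimated from FPKM steps of genes with 1 transcript (88.4% to 95.5% whole within 0.1). Copies were sought with blastn 2.17.0, and coordinates are from GENCODE M21. Promoters are from RefSeq on GRCm38.p6. Tables used Python 3.11.15, and figures matplotlib 3.10.9.

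The 10 genes and the lists were chosen with earlier results of these data known. Besides the 10, the text names, per list and comparison, up to 2 called genes in each direction; Psap and Ctsl, which were not called, were chosen after their values were seen. Alternatives changed scaling, filter, pseudocount, variance trend, threshold, groups fitted and libraries, and used the replicate number as a block. A covariate for Y-linked transcripts and the sum with Bnip3l-ps were added after seeing the data.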

Additional observations from a re-analysis of the deposited data

How the results depend on the processing

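Of 600 values of the 10 genes under alternatives, 560 kept their direction and their side of the threshold, 39 changed sign and 1 passed (Pink1 in vitrified against fresh, adjusted p = 0.0777 at a threshold of 0.1). The number of the 10 called stayed at 0 in every other setting. At that threshold it was 1 in vitrified against fresh, beside 686 of all 10755 genes tested. The cause of these changes was not tested. Pink1, Becn1, Map1lc3a and Bnip3 kept their sign in vitrified against fresh in every setting run, with ranges of 0.65 to 1.13, -0.67 to -0.13, -0.44 to -0.17 and -0.73 to -0.17. Map1lc3b (0.113 to 0.59) and Atg5 (-0.361 to -0.084) also kept their sign there. In melatonin-vitrified against vitrified, Bnip3 ranged from 0.21 to 0.74.

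The signs that changed were of values at or below 0.17 in size. In vitrified against fresh, Sqstm1 was at -0.081 with quantile normalization, -0.19 with median-ratio scaling and -0.036 with the Y-linked covariate, Gabarapl2 at -0.17 with median-ratio scaling, and Bnip3l at 0.021 when FPKM were rescaled without the mitochondrial genome. Against vitrified, melatonin-vitrified blastocysts had Map1lc3b at 0.001 with quantile normalization, 0.041 with median-ratio scaling and 0.013 rescaled, and Gabarap at 0.036 with median-ratio scaling and 0.008 rescaled. There, Becn1 was at -0.19 and Gabarapl2 at -0.033 with the Y-linked covariate. In melatonin-vitrified against fresh, Atg5 was at 0.01 with quantile normalization and 0.084 rescaled, and Gabarapl2 at -0.038 and Bnip3 at -0.087 with median-ratio scaling.

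The median of the 10 was -0.245 in vitrified against fresh, 0.170 in melatonin-vitrified against vitrified and -0.108 in melatonin-vitrified against fresh with median-ratio scaling, -0.033 in melatonin-vitrified against vitrified with the Y-linked covariate and 0.107 in melatonin-vitrified against fresh when rescaled. The count of other pathway genes called in vitrified against fresh was 1 with no variance trend, beside 85 of all 10755 genes. At a threshold of 0.1 it was 12, beside 686 of all 10755 genes. It was 0 with quantile normalization, median-ratio scaling, no filter and only the 2 groups compared. In these 4 settings 3, 7, 1 and 11 of all genes tested were called.

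Leaving out 1 library at a time, the log2 fold change in vitrified against fresh ranged from -0.274 to 0.283 for Sqstm1, -0.249 to 0.086 for Gabarap and -0.016 to 0.103 for Gabarapl2. For melatonin-vitrified against vitrified it ranged from -0.138 to 0.051 for Map1lc3b, -0.188 to 0.135 for Gabarap and -0.036 to 0.203 for Gabarapl2. In melatonin-vitrified against fresh it ranged from -0.114 to 0.076 for Atg5, -0.072 to 0.106 for Bnip3, -0.285 to 0.053 for Gabarap, -0.006 to 0.232 for Gabarapl2 and -0.137 to 0.420 for Sqstm1. The median of the 10 ranged from -0.121 to -0.045 in vitrified against fresh and from 0.023 to 0.110 in melatonin-vitrified against vitrified. Other pathway genes called ranged from 0 to 4 in vitrified against fresh and from 0 to 6 in melatonin-vitrified against fresh (6 without fresh replicate 2). Both highest counts came without fresh replicate 2, which left 1 fresh library. Calls among all genes tested were also the most numerous in that fit. With 1 fresh library the spread within that group cannot be measured, so no conclusion about the pathway genes is drawn from these highest counts. In vitrified against fresh, 1 pathway gene was called without melatonin-vitrified replicate 1, beside 41 of all genes. It was 1 beside 51 without melatonin-vitrified replicate 2. The GABARAP branch share differed by -0.80 to 0.62, -0.40 to 0.45 and -0.78 to 0.63 percentage points in vitrified against fresh, melatonin-vitrified against vitrified and melatonin-vitrified against fresh.

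Replicate numbers in the descriptions and in the titles differ, and neither pairs the libraries: same-numbered deviations correlated by -0.115 to 0.121 and by -0.115 to 0.039. With a replicate block of the description's number, Sqstm1 in vitrified against fresh was at -0.033. There 0 other pathway genes were called, beside 1 of all 10755 genes tested. With a replicate block of the title's number, the median of the 10 in vitrified against fresh was -0.142. In that fit 0 other pathway genes were called, beside 39 of all 10755 genes tested. With that block Map1lc3b was at 0.032, Gabarap at 0.12 and Sqstm1 at -0.076 in melatonin-vitrified against vitrified, and Atg5 at 0.014 in melatonin-vitrified against fresh. With 2 fresh libraries, differences of the sizes seen for most of the 10 genes lie within the intervals of the fit.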

Other observations

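Further genes of the lysosomal list, chosen after their values were seen, lay apart from the 10 in melatonin-vitrified against vitrified blastocysts. Psap, which encodes the precursor of the saposins, activators of lysosomal lipid digestion, was at 90.5 and 115 FPKM in the fresh libraries, at 92.7, 55.5 and 78.3 in the vitrified libraries, and at 165, 136 and 127 in the melatonin-vitrified libraries. All melatonin-vitrified libraries were above all others. Its log2 fold change against vitrified was 0.93 ± 0.20 (limma adjusted p = 0.118). Ctsl, which encodes the protease cathepsin L, was at 132 and 104 FPKM in the fresh, 167, 254 and 207 in the vitrified, and 94.8, 141 and 106 in the melatonin-vitrified libraries, where its log2 fold change against vitrified was -0.87 ± 0.20 (limma adjusted p = 0.138). Neither passed the test.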
